A study of Arabidopsis thaliana with 12 samples.

Results

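Untreated seedlings of axr2 and msg2, Arabidopsis thaliana mutants that each carry a changed Aux/IAA protein, were compared gene by gene. The 4 arrays titled axr2 mock or msg2 mock, 2 for each mutant, were taken from the 12 arrays of the series. All 22746 gene probe sets of the ATH1 array were considered, and 15025 of them passed a filter on low values and were tested. Every difference is given as axr2 minus msg2 on the log2 scale of the deposited MAS 5.0 signal, a scaled probe-set intensity, so a positive value means a higher signal in axr2. The series also holds wild type, and each genotype with 24-epibrassinolide (24-eBL), the brassinosteroid hormone used as treatment, at 100 nM. All groups were Columbia seedlings that received 8 h of light and then 4 days of darkness on sucrose-containing medium, and they were 4 days old when whole seedlings were harvested. Both mutants are named in the labels without an allele number. The 2 arrays of a group were described by the submitters as biological replicates, but the labels do not say how the seedlings were pooled. Each p-value therefore rests on the spread between samples within groups, estimated jointly over all 12 arrays, and not on that between single seedlings.

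Aux/IAA proteins are short-lived repressors that bind auxin response factors and keep auxin-regulated genes off. Auxin brings them together with the TIR1 family of receptors, which leads to their degradation and releases the genes. In axr2 the repressor IAA7 and in msg2 the repressor IAA19 carries a dominant change in the degradation motif, so each mutant keeps a different repressor in the presence of auxin. The axr2 mutant is known for a short hypocotyl, agravitropic growth and few root hairs, and msg2 for weak hypocotyl bending and few lateral roots. Neither IAA7 nor IAA19 was among the genes tested here, and neither mutation is a deletion, so no gene level checks the genotype labels.

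The arrays shared 1 scale, with a trimmed mean signal of 500.05 to 500.06 before the log, and their median log2 signals ranged from 6.91 to 7.18. Replicate arrays correlated at r = 0.968 in axr2 and 0.979 in msg2 across probe sets, and arrays of the different mutants at 0.927 to 0.934. PORB, the protochlorophyllide reductase of dark-grown shoots, lay between 12.70 and 12.79 on all 4 arrays. PYK10, a beta-glucosidase of roots and seedlings, lay between 14.43 and 14.58. Among the fixed markers, 1 of 6 for etiolated seedlings, 1 of 5 for roots and 3 of 6 for root hairs had a probe set of a single gene. None of the markers for light-grown tissue, dry seed, pollen or guard cells had one, so those cells were not checked. No array pair held identical values.

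The mutants differed in many genes. At a Benjamini-Hochberg adjusted p under 0.05 in limma, 2522 of 15025 probe sets (16.8%) were called, 1242 (8.27%) higher and 1280 (8.52%) lower in axr2. Through probe sets that name a single gene, 8091 genes were tested and 1286 were called (15.9%), of which 671 (8.29%) were higher and 615 (7.6%) lower in axr2. The 2 axr2 arrays did not overlap the 2 msg2 arrays for any of the 1286, against 59% of all tested genes without overlap, a property that the call itself nearly fixes. Changes of at least 2-fold made up 229 of the rises and 215 of the falls. Only 359 of the 1286 calls held when each of the 4 arrays was left out in turn, and the count of called probe sets ranged from 1044 without msg2 array 1 to 2111 without axr2 array 1. A named change below held without any 1 of the 4 arrays unless the array that ended the call is given with it. The median change of all tested probe sets was 0.08, and centring each array on its median moved it to -0.07. That centring turned the split to 670 higher and 1840 lower, so 26.7% of calls were higher instead of 49.2%. Small rises are therefore best read against the median change of all tested genes, 0.10. Of the 8091 tested genes, 4675 had a positive and 3416 a negative change, the background for counts of signs in the lists below. Counts of calls in the gene lists below are likewise best read against the shares over all tested genes, 8.29% higher and 7.6% lower. At an unadjusted p under 0.05 in limma, 4623 of the 15025 tested probe sets passed in either direction. List counts at that threshold are best read against this number.

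**Figure D1:**
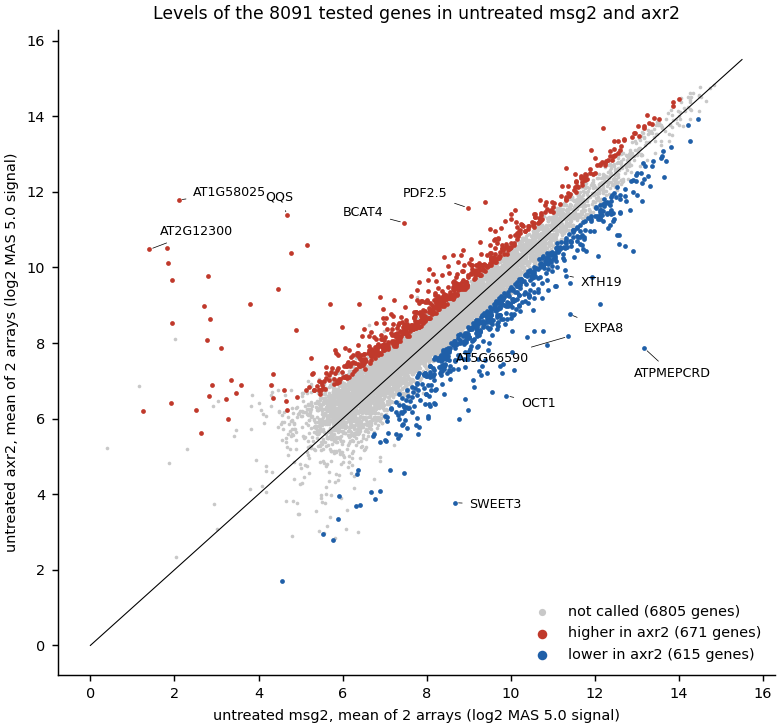
Mean log2 signal of 2 untreated arrays in msg2 (x axis) and axr2 (y axis) for the 8091 tested genes, with the 671 genes called higher in axr2 in red, the 615 called lower in blue and the others in grey. Points far above the diagonal at low msg2 signal include AT1G58025 and QQS, and the point farthest below it among bright genes is ATPMEPCRD.

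Wild type stood closer to msg2 than to axr2 in most of these genes. The mean of the 2 untreated wild-type arrays was nearer to the msg2 mean in 1201 of the 1286 called genes, against 73.8% of all tested genes. By group means, msg2 lay between wild type and axr2 in 889 of the 1286 called genes. In 382 wild type lay between the mutants, and in 15 axr2 lay between wild type and msg2. Over all 8091 tested genes the counts in the same order were 4629, 2077 and 1385. The counts for the called genes are best read against that background. The wild-type arrays were not part of the difference that called the 1286 genes. They did enter the filter, the choice of a probe set per gene and the shared estimate of spread. Against wild type itself, 35.5% of probe sets were called for axr2 and 4.12% for msg2, in comparisons that share the mutant arrays with the one described here.

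Cell wall genes held the largest fall among genes with signal on every array. ATPMEPCRD (AT2G43050) encodes a pectin methylesterase, an enzyme that strips methyl groups from wall pectin. Its log2 signal was 7.77 and 7.95 on the axr2 arrays and 13.19 and 13.17 on the msg2 arrays, against 13.55 and 13.58 in wild type. The axr2 arrays were thus far below both other genotypes, and the signal was 39.9-fold lower in axr2 than in msg2 (log2 change -5.32 ± 0.15 SE, limma adjusted p = 8.4e-14). In whole seedlings, fewer cells of a type and less RNA per cell cannot be told apart, here and in every result that follows. A second gene of the family, PME61 (AT3G59010), read 5.58 and 5.99 in axr2 and 7.92 and 7.72 in msg2. It was dim in axr2, below the 40th percentile of its array on at least 1 array, and was at least 2.82-fold lower (limma adjusted p = 4.6e-05). In the opposite direction, ATPMEPCRB (AT4G02330) of the same family rose from 9.62 and 9.38 in msg2 to 10.71 and 10.46 in axr2, 2.12-fold, with wild type at 8.19 and 8.86. Of the 4 tested genes on the pectin list, 1 rose, 2 fell and GAUT15 was not called.

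Expansins loosen the wall without cutting its polymers. Of 15 tested expansin genes, 1 was higher and 4 lower in axr2, and the median change of the 15 was -0.21. Without msg2 array 2 the counts were 0 higher and 3 lower. EXPA8 (AT2G40610) had the largest difference, with 8.69 and 8.83 in axr2, 11.45 and 11.35 in msg2 and 12.09 and 12.41 in wild type. The 3 genotypes did not overlap, and axr2 was 6.23-fold below msg2 (log2 change -2.64 ± 0.16, limma adjusted p = 3.1e-09). The expansin-like gene EXLA2 (AT4G38400) was 2.06-fold lower, at 8.26 and 7.83 in axr2 and 9.20 and 8.97 in msg2. Its relative EXLA1 (AT3G45970) was 1.74-fold lower, a call that ended without msg2 array 1 (limma adjusted p = 0.13). The beta-expansin EXPB1 (AT2G20750) was 1.91-fold lower, and lost its call without axr2 array 2 (0.097 in limma) or msg2 array 2 (0.054). In the opposite direction, EXPA9 (AT5G02260) was 1.59-fold higher, a call lost without axr2 array 1 (0.16 in limma) or msg2 array 2 (0.21). The other 10 expansin genes were not called.

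None of the 3 tested root hair wall genes was called in limma, nor had an unadjusted p under 0.05. EXPA7 (AT1G12560) read 7.31 and 6.81 in axr2 and 7.82 and 7.26 in msg2, and EXPA18 (AT1G62980) read 8.87 and 8.85 and 9.49 and 9.13. The root hair endoglucanase GH9C1 (AT1G48930) read 7.61 and 7.32 in axr2 and 7.03 and 6.73 in msg2. Their log2 changes were -0.48, -0.45 and 0.59 (limma adjusted p = 0.51, 0.21 and 0.67). EXPA7 overlapped between the mutants, while the small gaps in the other two went in opposite directions.

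Xyloglucan endotransglucosylase/hydrolases (XTH) cut and rejoin xyloglucan chains of the wall. The 8 tested members split evenly, with 3 higher and 3 lower in axr2 and 2 not called, so the family as a whole had no common direction. The lower members were led by XTH19 (AT4G30290), at 9.88 and 9.69 in axr2 and 11.22 and 11.41 in msg2, 2.9-fold lower (log2 change -1.53 ± 0.15, limma adjusted p = 8.5e-07). Wild type, at 11.86 and 12.03, was above both mutants. XTH33 (AT1G10550) fell 2.17-fold, from 9.59 and 9.43 in msg2 to 8.70 and 8.08 in axr2. EXGT-A3 (AT2G01850) was 1.5-fold lower, a call lost without axr2 array 1 (limma adjusted p = 0.087) or msg2 array 1 (0.12). Among the higher members, XTH32 (AT2G36870) read 12.72 and 12.54 in axr2 and 11.27 and 11.35 in msg2, 2.49-fold higher (log2 change 1.32 ± 0.15, limma adjusted p = 1.0e-05), with wild type lower still at 10.68 and 10.81. XTH20 (AT5G48070) read 8.24 and 8.85 in axr2, 7.35 and 7.35 in msg2 and 6.96 and 6.47 in wild type, and was 2.28-fold higher in axr2 than in msg2. The 3 genotypes were thus ordered alike for XTH20 and XTH32, and in the reverse order for XTH19 and XTH33. XTH16 (AT3G23730) was 1.57-fold higher, but its call was lost without axr2 array 2 (0.34 in limma), msg2 array 1 (0.29) or msg2 array 2 (0.071). XTH18, at 10.83 and 10.61 in axr2 and 10.29 and 11.20 in msg2, and XTH21, at 6.62 and 6.67 and 6.46 and 5.09, were not called, and their arrays overlapped only for XTH18. Elsewhere in the wall, the endoglucanase gene GH9C2 (AT1G64390) was 2.57-fold lower in axr2, at 10.86 and 10.01 against 11.76 and 11.83 in msg2. The gene TBL37 (AT2G34070), of a family of wall polysaccharide acetyltransferases, was 2.47-fold lower.

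**Figure D2:**
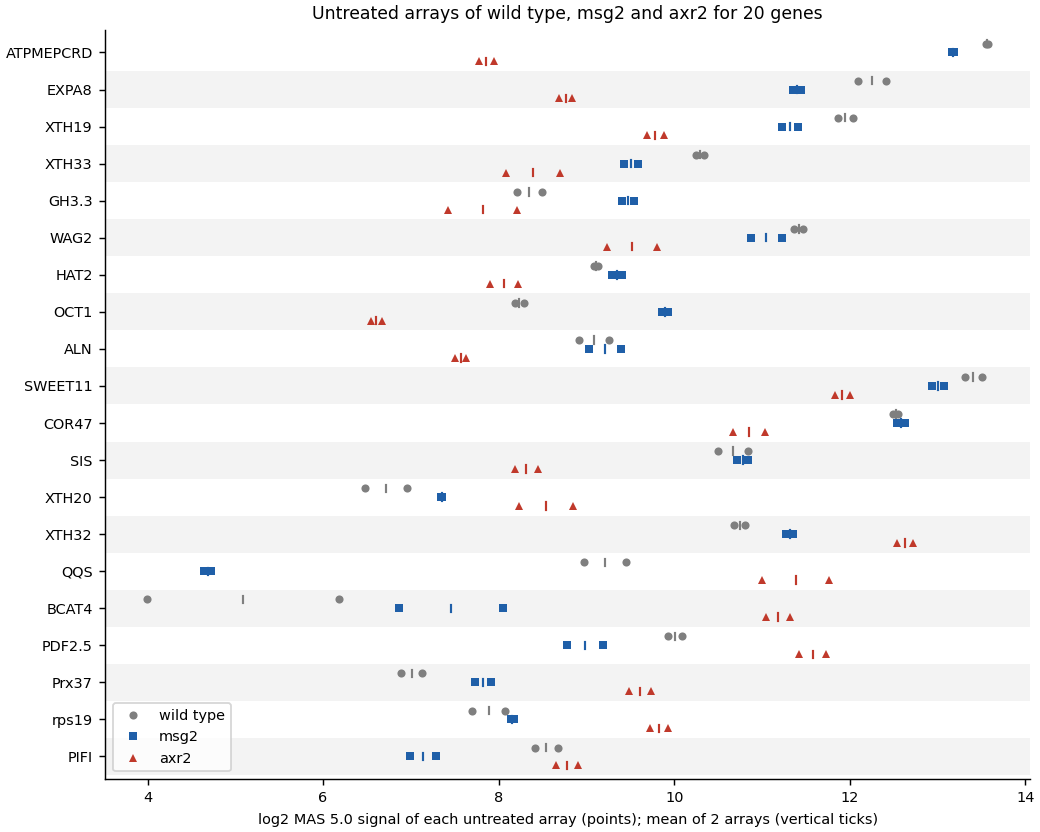
Log2 MAS 5.0 signal (x axis) on each untreated array of wild type (grey circles), msg2 (blue squares) and axr2 (red triangles) for 20 genes, with the mean of 2 arrays as a vertical tick. All 20 were picked from the called genes, so the axr2 arrays are separate from the msg2 arrays by choice. Of all tested genes, 59% are without overlap. For ATPMEPCRD the axr2 arrays sit at 7.77 and 7.95 against 13.19 and 13.17 in msg2.

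Within the auxin pathway itself, 3 Aux/IAA genes were tested and only IAA29 was called. IAA29 (AT4G32280) read 6.23 and 5.44 in axr2 and 7.44 and 7.38 in msg2, with wild type at 5.67 and 5.65, close to axr2. The gene was at least 2.12-fold lower in axr2 (limma adjusted p = 0.0098). That call was lost without axr2 array 2 (0.1 in limma), msg2 array 1 (0.082) or msg2 array 2 (0.057). IAA20, at 8.85 and 8.996 in axr2 and 8.60 and 8.49 in msg2, and IAA18, at 8.26 and 7.99 and 7.91 and 8.24, were not called. The log2 change of IAA18 was 0.05 as deposited and turned negative after centring or quantile normalization.

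The GH3 enzymes link auxin to amino acids and are classic auxin-induced genes. GH3.3 (AT2G23170) read 7.43 and 8.21 in axr2, 9.54 and 9.40 in msg2 and 8.21 and 8.49 in wild type. It was 3.14-fold lower in axr2 than in msg2 (log2 change -1.65 ± 0.26, limma adjusted p = 2.4e-04). Set against wild type, msg2 was higher by 1.12 (limma adjusted p = 0.019), while axr2 differed by -0.53 (adjusted p = 0.11). WES1, which is GH3.5, read 10.04 and 10.07 in axr2 and 10.16 and 10.17 in msg2, and GH3.17 read 10.48 and 10.44 and 10.87 and 10.76. Neither was called. Of the regulators of lateral root founding, LBD16 read 7.87 and 7.64 in axr2 and 8.44 and 8.14 in msg2 and LBD29 read 7.06 and 6.51 and 6.75 and 7.38, also without a call.

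Auxin transport was represented by WAG2 (AT3G14370), a kinase that acts on the polarity of PIN auxin carriers. Its signal was 9.80 and 9.23 in axr2, 10.88 and 11.22 in msg2 and 11.47 and 11.37 in wild type, 2.9-fold lower in axr2 than in msg2 (limma adjusted p = 1.1e-05). The auxin-induced homeodomain gene HAT2 (AT5G47370) read 7.90 and 8.22 in axr2 and 9.29 and 9.40 in msg2. It was 2.45-fold lower in axr2, and wild type at 9.08 and 9.13 stood near msg2. Among the 3 gibberellin receptor genes, only GID1C (AT5G27320) was called, 1.77-fold lower in axr2. That call was lost without axr2 array 1 (limma adjusted p = 0.1) or msg2 array 1 (0.15).

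Sugar transporters were lower in axr2 where they were called. Of 12 tested genes, 0 rose and 4 fell, all of the SWEET family of sugar carriers, and the median of the 12 was -0.27. Without msg2 array 1 the count of falls was 2, and without msg2 array 2 there was 1 rise beside the 4 falls. At an unadjusted p under 0.05 in limma, 1 of the 12 was higher and 4 were lower, where 4623 of all 15025 probe sets passed. The higher one was SWEET14 (AT4G25010), chosen after its values were seen, at 5.94 and 6.87 in axr2 and 2.41 and 5.62 in msg2, dim on both msg2 arrays and on 1 axr2 array and not called (limma adjusted p = 0.052). SWEET3 (AT5G53190) was bright in msg2, at 8.72 and 8.63, and dim on both axr2 arrays, at 5.42 and 2.13. It was at least 5.09-fold lower (limma adjusted p = 3.3e-05), with wild type at 8.77 and 9.22. The plasma membrane sucrose carrier gene SWEET11 (AT3G48740) read 11.83 and 12.003 in axr2 and 13.07 and 12.94 in msg2, a 2.13-fold difference (log2 change -1.09 ± 0.13, limma adjusted p = 1.8e-05). The vacuolar carriers SWEET16 (AT3G16690) and SWEET17 (AT4G15920) were 2.04-fold and 2.31-fold lower. Both lost their calls without msg2 array 1, at limma adjusted p = 0.14 and 0.081.

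All 3 tested OCT genes, for organic cation and carnitine transporters, were lower in axr2, in a list made after their values were seen. The carnitine transporter gene OCT1 (AT1G73220) read 6.55 and 6.67 in axr2, 9.93 and 9.86 in msg2 and 8.18 and 8.29 in wild type. Wild type lay between the mutants, and axr2 was 9.78-fold below msg2 (log2 change -3.29 ± 0.20, limma adjusted p = 3.5e-09). The other two tested OCT genes were lower as well. OCT4 (AT3G20660), dim on 1 axr2 array, was at least 1.98-fold lower, and lost its call without axr2 array 2 (limma adjusted p = 0.13) or msg2 array 2 (0.057). OCT5 (AT1G79410) was 1.52-fold lower, and lost its call without axr2 array 1, msg2 array 1 or msg2 array 2 (limma adjusted p = 0.28, 0.14 and 0.16).

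Purine breakdown showed 2 falls among 4 tested genes, with a median of -0.58, in a list made after its values were seen. The allantoinase gene ALN (AT4G04955) read 7.63 and 7.50 in axr2 and 9.03 and 9.39 in msg2, 3.13-fold lower (log2 change -1.65 ± 0.20, limma adjusted p = 1.4e-05). The next step of the pathway is encoded by the allantoate amidohydrolase gene AAH (AT4G20070), which was 1.8-fold lower, at 8.68 and 8.33 against 9.42 and 9.28. Wild type was near msg2 for both, at 8.91 and 9.26 for ALN and 9.37 and 9.45 for AAH. Of 9 genes for branched-chain amino acid breakdown and alternative respiratory substrates, 3 fell and 0 rose, with a median of -0.45. That list, too, was made after its values were seen. IVD (AT3G45300), a dehydrogenase of leucine breakdown, read 8.29 and 8.39 in axr2 and 9.22 and 9.33 in msg2, 1.91-fold lower, and PAHX (AT2G01490), which acts in phytol breakdown, was 1.7-fold lower. Autophagy genes had 2 falls and 0 rises among 10, and all 10 changes were negative (median -0.33). ATG8E (AT2G45170), whose product coats the autophagosome membrane, was 2.2-fold lower, a call lost without msg2 array 1 (limma adjusted p = 0.051). ATG3 (AT5G61500), which attaches the ATG8 proteins to lipid, was 1.56-fold lower, a call lost without axr2 array 1 (0.11 in limma) or msg2 array 2 (0.19). The number of autophagy falls was 1 without axr2 array 1, msg2 array 1 or msg2 array 2, and 4 without axr2 array 2.

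Of 9 tested dehydration genes, 1 rose and 3 fell, 8 changes were negative, and the median was -1.11. Without msg2 array 1 the count was 1 rise and 1 fall. The dehydrin gene COR47 (AT1G20440) read 11.03 and 10.67 in axr2 and 12.53 and 12.63 in msg2, with wild type at 12.49 and 12.55. The axr2 arrays alone were low, by 3.32-fold against msg2 (log2 change -1.73 ± 0.15, limma adjusted p = 3.8e-07). A second dehydrin gene, LTI30 (AT3G50970), was 2.69-fold lower, a call lost without msg2 array 1 (limma adjusted p = 0.06). HVA22C (AT1G69700) rose 2.11-fold, from 7.73 and 7.74 in msg2 to 8.60 and 9.02 in axr2. The drought-inducible linker histone gene HIS1-3 (AT2G18050) was at 6.85 and 6.95 in msg2 and dim on both axr2 arrays, at 4.30 and 3.89, at least 1.49-fold lower (limma adjusted p = 3.5e-04). The gene SIS (AT5G02020) read 8.18 and 8.45 in axr2, 10.72 and 10.84 in msg2 and 10.50 and 10.84 in wild type, 5.52-fold lower in axr2 than in msg2 (log2 change -2.46 ± 0.18, limma adjusted p = 4.4e-08).

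The largest rise of a gene with an assigned name was that of QQS (AT3G30720), an orphan gene of Arabidopsis thaliana that is known to affect leaf starch and protein content. Its signal was 11.005 and 11.76 in axr2, 4.64 and 4.73 in msg2 and 8.98 and 9.46 in wild type. Both msg2 arrays were dim, and the 3 genotypes were far apart, with wild type between the mutants. The signal in axr2 was at least 37.9-fold that in msg2 (limma adjusted p = 3.8e-11). On the log2 scale axr2 stood 2.17 above wild type (limma adjusted p = 1.9e-05). A large subunit gene of the starch-synthesis enzyme ADP-glucose pyrophosphorylase, APL3 (AT4G39210), was dim on 1 msg2 array, at 5.92 and 6.998 in msg2 and 7.86 and 8.49 in axr2. It was at least 3.07-fold higher (limma adjusted p = 0.0016). These 2 were the called genes among 4 tested for starch and sugar metabolism.

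The largest rise among genes with signal on all 4 arrays was in glucosinolate synthesis. The aminotransferase gene BCAT4 (AT3G19710), of the methionine chain elongation that feeds glucosinolates, read 11.04 and 11.32 in axr2, 6.87 and 8.05 in msg2 and 6.18 and 3.999 in wild type. The order was axr2 over msg2 over wild type, and axr2 was 13.2-fold above msg2 (log2 change 3.73 ± 0.45, limma adjusted p = 1.4e-05). Of the 6 tested genes of glucosinolates and their storage bodies, 2 rose and 1 fell. The other rise, UGT74B1, lost its call whichever of the 4 arrays was left out. The fall was AOP1 (AT4G03070), at least 1.97-fold lower, a call lost without axr2 array 2, msg2 array 1 or msg2 array 2 (limma adjusted p = 0.3, 0.076 and 0.14).

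Of 9 tested defence genes, 1 rose and 1 fell. The defensin gene PDF2.5 (AT5G63660) read 11.43 and 11.73 in axr2 and 8.77 and 9.19 in msg2, with wild type between them at 9.93 and 10.09. It was 6.06-fold higher in axr2 (log2 change 2.60 ± 0.19, limma adjusted p = 4.7e-08). ECS1 (AT1G31580) was at least 1.67-fold lower, a call lost without axr2 array 2, msg2 array 1 or msg2 array 2 (limma adjusted p = 0.17, 0.12 and 0.11). The class III peroxidase gene Prx37 (AT4G08770) read 9.73 and 9.48 in axr2 and 7.92 and 7.73 in msg2, 3.44-fold higher, with wild type lowest at 7.13 and 6.89. ARPN (AT2G02850), which encodes the blue copper protein plantacyanin, was 3.05-fold higher, at 10.59 and 10.34 against 8.98 and 8.74. FACT (AT5G63560), a caffeoyl transferase of suberin-associated waxes, was 2.48-fold higher. A pathogenesis-related gene, PR-1-LIKE (AT2G19990), rose 6.23-fold from 6.25 and 6.52 to 9.41 and 8.64. Its call was lost without axr2 array 1, msg2 array 1 or msg2 array 2 (limma adjusted p = 0.1, 0.093 and 0.051). Of 6 phenylpropanoid and lignin genes, 1 rose and 2 fell. The glycosyltransferase gene UGT72E2 (AT5G66690) was 1.52-fold lower, a call lost without msg2 array 1 (limma adjusted p = 0.053). HCT (AT5G48930), a hydroxycinnamoyl transferase, was 1.32-fold lower and CCR2 (AT1G80820), a cinnamoyl-CoA reductase, at least 1.94-fold higher. Both calls were lost without axr2 array 1, msg2 array 1 or msg2 array 2, at limma adjusted p of up to 0.31 and 0.17.

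Plastid-encoded genes were higher in axr2 in every case that was called. Of 58 tested genes of the plastid genome, 22 rose and 0 fell, 54 changes were positive, and the median change was 0.73 against 0.10 for all tested genes. At an unadjusted p under 0.05 in limma 37 were higher and 0 lower. The array medians over these 58 genes were 9.52 and 8.55 in axr2, 7.55 and 8.05 in msg2, and 8.56 and 8.00 in wild type. The axr2 medians were above the msg2 medians, but axr2 array 2 was level with the higher wild-type array. The number of rises depended on the arrays, with 4 without msg2 array 1, 8 without axr2 array 1, 24 without msg2 array 2 and 26 without axr2 array 2. The median change kept its sign in all 4, between 0.51 and 0.96.

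By function, 18 of these plastid genes encode parts of the ribosome, the RNA polymerase, an intron maturase, a protease and a carboxylase. This split of the plastid genes was made after their values were seen. Of the 18, 10 rose, all changes were positive, and the median was 1.29. The other 40 are photosynthesis genes, of which 12 rose, with a median of 0.59. Without msg2 array 1 the counts were 4 of 18 and 0 of 40, and without axr2 array 1 they were 5 and 3. The adjacent ribosomal protein genes rps19, rpl22 and rps3 were the clearest. For rps19 the signal was 9.93 and 9.72 in axr2 and 8.14 and 8.18 in msg2, 3.17-fold higher (log2 change 1.67 ± 0.19, limma adjusted p = 7.8e-06), with wild type at 7.70 and 8.08. For rpl22 it was 9.65 and 9.15 in axr2, 7.72 and 7.83 in msg2 and 5.29 and 6.33 in wild type, and for rps3 10.61 and 10.04, 8.82 and 8.82 and 7.47 and 8.28. These 2 genes were 3.09-fold and 2.85-fold higher in axr2 than in msg2, and no array of one mutant overlapped the other. The maturase gene matK read 11.53 and 11.03 in axr2 and 9.68 and 10.34 in msg2, 2.42-fold higher (limma adjusted p = 0.0012), with wild type at 11.002 and 10.53, inside the range of the 4 mutant arrays. The largest called plastid change was in rpl33, 3.63-fold, where 11.10 and 9.45 in axr2 and 7.60 and 9.23 in msg2 nearly met. Its call was lost without axr2 array 1 (limma adjusted p = 0.3) or msg2 array 1 (0.37). Of the photosynthesis genes, psbA, for the D1 protein of photosystem II, was 2.5-fold higher, and rbcL, for the large subunit of Rubisco, 1.71-fold. Both calls were lost without msg2 array 1, at limma adjusted p = 0.089 and 0.067.

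**Figure D3:**
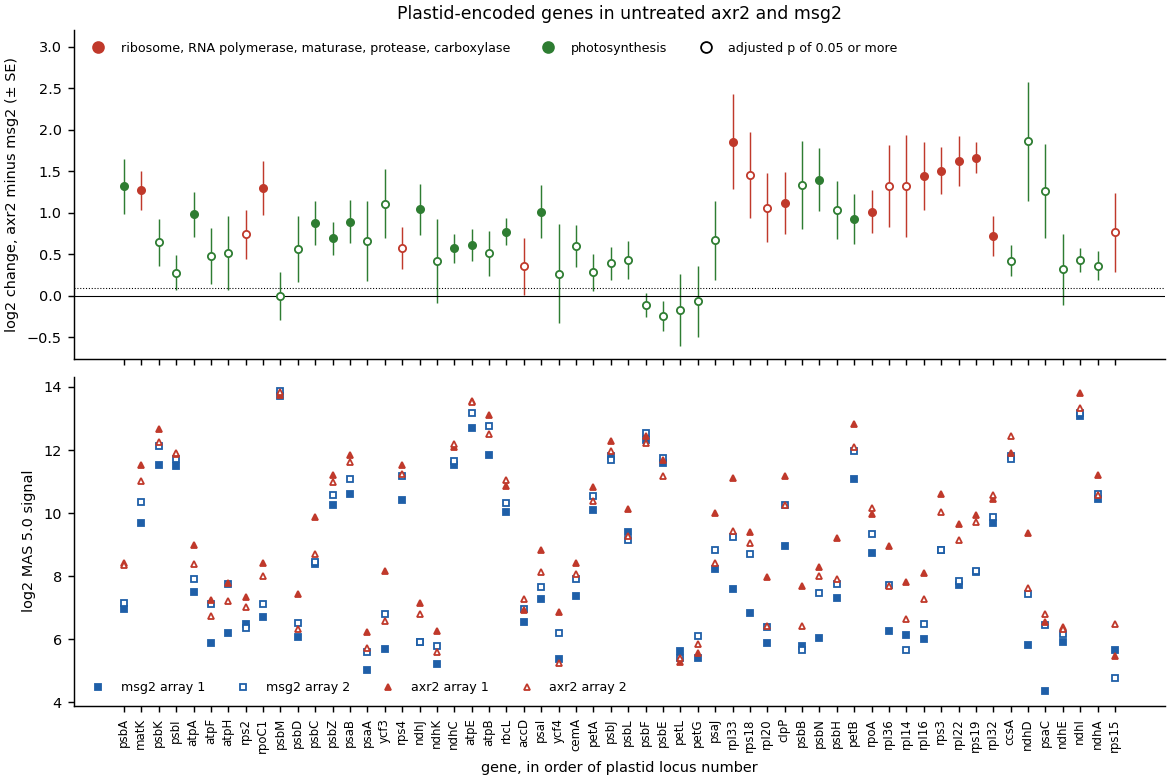
Upper panel: log2 change, axr2 minus msg2, with its standard error for the 58 tested plastid genes in order of locus number, red for ribosome, RNA polymerase, maturase, protease and carboxylase genes, green for photosynthesis genes, and open where the adjusted p was 0.05 or more; the dotted line is the median of all tested genes, 0.10. Lower panel: log2 MAS 5.0 signal of each untreated array, filled for array 1 and open for array 2. The run from rpoA to rps19 lies at or above a change of 1.02; over all 58 genes the array medians are 7.55 and 8.05 in msg2 and 9.52 and 8.55 in axr2.

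Of 40 tested nuclear genes for organelle RNA processing and for plastid assembly and redox control, 15 rose and 0 fell, 33 changes were positive, and the median was 0.68. That list was made after its values were seen. At an unadjusted p under 0.05 in limma 25 were higher and 0 lower. The count of called rises was 6 without msg2 array 2, 8 without axr2 array 2 or msg2 array 1, and 11 without axr2 array 1. PIFI (AT3G15840), a chloroplast protein needed for NAD(P)H dehydrogenase-dependent electron flow, read 8.66 and 8.90 in axr2 and 6.99 and 7.29 in msg2. Wild type, at 8.41 and 8.67, stood by axr2, and axr2 was 3.12-fold above msg2 (log2 change 1.64 ± 0.24, limma adjusted p = 1.3e-04). PPR596 (AT1G80270), a mitochondrial pentatricopeptide protein, read 8.98 and 9.30 in axr2, 7.71 and 7.85 in msg2 and 7.001 and 7.06 in wild type. It was 2.57-fold higher in axr2 than in msg2 (limma adjusted p = 1.3e-04). The thylakoid protein gene CaS (AT5G23060) was 2.05-fold higher and the plastid chaperonin gene Cpn60beta2 (AT3G13470) 1.81-fold higher. The nuclear genes for photosystems, Rubisco and chlorophyll gave 1 rise and 0 falls among 14 tested, with 12 positive changes and a median of 0.30. At an unadjusted p under 0.05 in limma 6 were higher and 0 lower, where 4623 of all 15025 probe sets passed in either direction. The greening enzyme PORB differed by -0.02.

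A small set of genes was dim in one mutant and bright in the other. With dim again meaning below the 40th percentile of the array, 16 genes were dim on both msg2 arrays and bright on both axr2 arrays, with a gap of at least 2 log2 units above that percentile. All 16 were called, and 12 of them are annotated as pseudogenes. In wild type 15 of the 16 were dim on both untreated arrays, the exception being QQS. They lay on chromosome 1 (3 genes), chromosome 2 (8), chromosome 3 (4) and chromosome 4 (1). Chromosome 2 holds 14.6% of all tested genes, but its share of the tested pseudogenes was not computed. The spread over chromosomes was not tested and is not read as an excess. These genes were picked by their values in these arrays, so their calls add nothing to the choice. The highest axr2 signal was that of AT1G58025, annotated as protein-coding, which read 12.08 and 11.49 in axr2, 3.74 and 0.46 in msg2 and 1.51 and 1.05 in wild type. It was at least 50.1-fold higher in axr2 than in msg2 (limma adjusted p = 3.8e-07).

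The pseudogenes AT2G12240 and AT2G12300 read 10.41 and 10.63 and 10.36 and 10.58 in axr2. Their msg2 signals were 2.81 and 0.82 and 1.52 and 1.28, at the bottom of the scale, where the values have no order. The difference was at least 20.8-fold for AT2G12240 and at least 20.2-fold for AT2G12300. AT3G30396 was at least 15.9-fold higher, AT2G13870 at least 12.5-fold and AT2G12980 at least 11.5-fold. AT3G31955, at 8.32 and 8.75 in axr2, was at least 5.27-fold higher, a call lost without axr2 array 1, axr2 array 2 or msg2 array 2 (limma adjusted p = 0.083, 0.12 and 0.057). Among all pseudogenes on the array, 998 had a probe set of their own, 62 passed the filter, 19 were called higher in axr2 and 2 lower. Of the 62, 24 were dim on every msg2 and wild-type array and so passed through axr2 arrays alone, which fixed their direction. Among the other 38, 2 were called higher and 2 lower.

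The reverse pattern was rarer. Only 3 genes, none a pseudogene, were bright on both msg2 arrays and dim on both axr2 arrays with the same gap, and all 3 were bright in wild type. They were SWEET3, AT2G18210 and AT4G09890. AT2G18210 read 6.32 and 6.13 in axr2 and 8.89 and 9.06 in msg2, at least 6.27-fold lower. AT4G09890 read 5.84 and 6.16 and 8.39 and 9.15, at least 5.44-fold lower. Neither locus has a name in the annotation used.

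**Figure D4:**
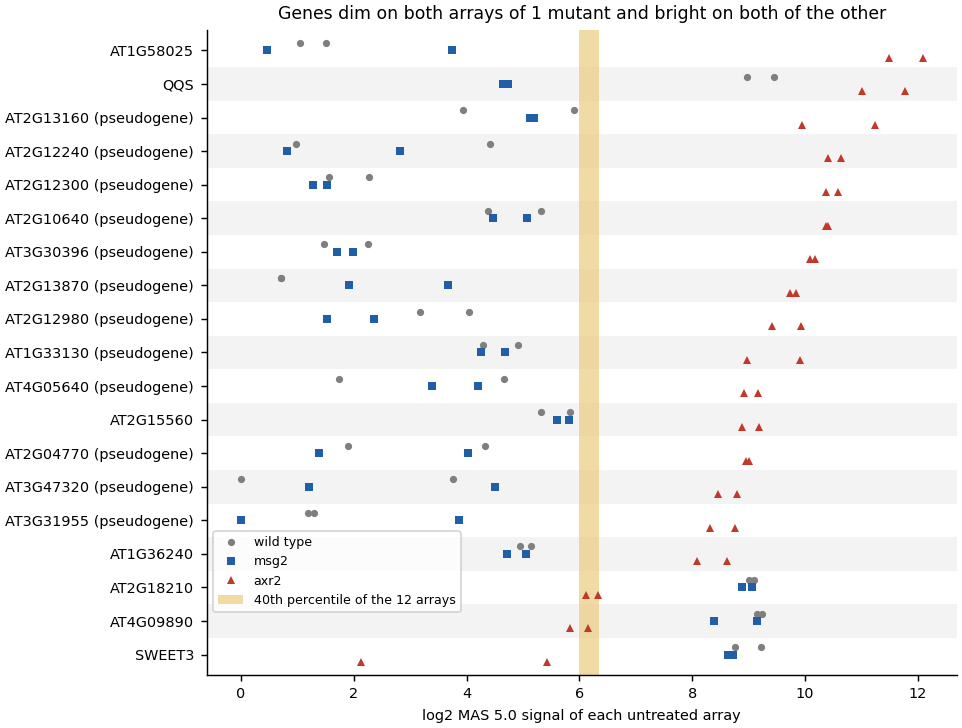
Log2 MAS 5.0 signal (x axis) on each untreated array of wild type (grey circles), msg2 (blue squares) and axr2 (red triangles) for the 16 genes dim in msg2 and bright in axr2 and, in the lowest 3 lines, the genes with the reverse pattern. The yellow band spans the 40th percentile of the 12 arrays, 5.99 to 6.34; wild type lies left of it with msg2 for 15 of the first 16 genes and to its right for QQS.

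The same comparison was available in seedlings given 24-eBL, on 4 arrays that share none with the untreated ones. With the hormone 1924 probe sets (12.8%) were called. In the same direction in both, 1009 probe sets were called, 40% of the untreated calls and 52.4% of the treated calls, and 9 were called in opposite directions. Of the 2522 untreated calls, 93.3% had the same sign with the hormone. The same share over all 15025 tested probe sets was not computed, so that figure has no background to be read against. Across the 15025 probe sets the changes correlated at r = 0.669 (Spearman rho = 0.589), a description across features that are not independent. ATPMEPCRD and EXPA8 also differed with 24-eBL, with treated log2 changes of -5.81 and -3.46 (limma adjusted p = 1.7e-14 and 6.6e-11). QQS read 11.41 and 11.62 in treated axr2 and was again dim on both treated msg2 arrays, at 5.90 and 4.81. Of the 16 genes dim in msg2 and bright in axr2, 15 showed that pattern again in the treated arrays. The photosynthesis list of nuclear genes had 9 rises among 14 with the hormone, where 5.33% of all tested genes rose, and 1 without, but no member differed between treated and untreated by the interaction test.

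The difference between the mutants itself changed with 24-eBL in few genes. The interaction term was called for 82 probe sets (0.546%) and 34 genes (0.42%). Of the 34, 8 were called between the mutants only without the hormone, 10 only with it and 16 in both. XTH20 turned over. With 24-eBL it read 7.89 and 7.60 in axr2 and 9.05 and 9.02 in msg2, so that axr2 passed from 1.19 above msg2 to -1.29 (interaction -2.48 ± 0.32, limma adjusted p = 6.7e-04). For XTH19 the fall in axr2 grew to -2.73 (interaction -1.19 ± 0.21, limma adjusted p = 0.0087), a call lost without untreated msg2 array 1 (limma adjusted p = 0.071). OCT1 kept a smaller difference, -1.18 (interaction 2.11 ± 0.28, limma adjusted p = 7.1e-04). The gap in SIS closed, at 8.87 and 9.30 in treated axr2 and 9.14 and 9.19 in treated msg2, with an interaction of 2.39 ± 0.26 (limma adjusted p = 1.5e-04). That in Prx37 closed too, at 9.24 and 9.21 and 9.17 and 9.05, with an interaction of -1.67 ± 0.26 (limma adjusted p = 0.004). In SIS the treated msg2 arrays were lower than the untreated ones, and in Prx37 they were higher, while axr2 moved less in both.

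**Figure D5:**
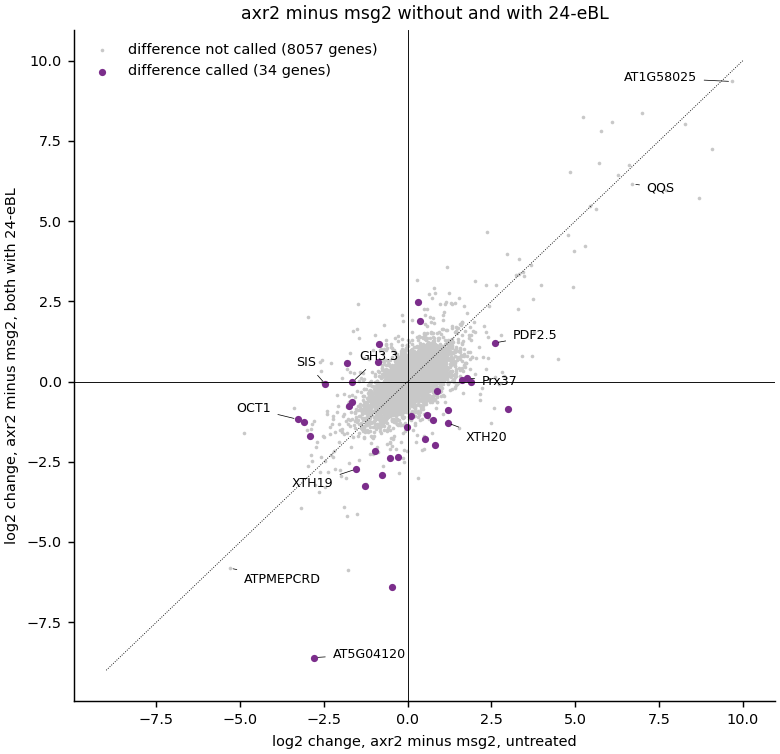
Log2 change, axr2 minus msg2, without 24-eBL (x axis) and with it (y axis) for the 8091 tested genes; the 34 genes whose change differed by the interaction test are purple, and the dotted line marks equal changes. Genes dim in a mutant are drawn at their measured values. ATPMEPCRD and QQS lie near the dotted line, SIS and Prx37 near a treated change of 0, and XTH20 in the quadrant of opposite signs.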

How the data were processed

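The deposited values, from 1 Affymetrix ATH1 array per sample, are log2 signals that the authors made with the MAS 5.0 algorithm in GeneSpring 11.0, per the series' design text. The log2 scale was read from the values. MAS 5.0 treats each array alone, which leaves low signals noisy, and 139 to 436 probe sets per array were at 0. The genome build behind the probe mapping is not given in the sources used here. The number of arrays, 2 per group, limits the precision.

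Samples were grouped by title and not paired by replicate number. After removal of 64 control probe sets, those above the 40th percentile of the full table of 22810 on at least 2 of 12 arrays were tested in limma 3.58.1 (R 4.3.3), with 1 mean per group over all 12 arrays, eBayes with an intensity trend, and adjustment over all 15025 probe sets. The median residual SD was 0.219, on 6 residual and 12.03 prior degrees of freedom. The script was tested on simulated data. Alternatives were other normalizations, filters, offsets, variance models and thresholds, a fit to the compared arrays alone, replicate number as a block, and leaving out each array.

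Of the gene probe sets, 13513 named 1 gene in the platform annotation, 503 several, and 8730 were not in it and stay unnamed. Symbols were updated through RefSeq (TAIR10.1) by gene ID for 13436, by locus for 48, and kept for 29. For the 56 genes with several tested probe sets the brightest was used. Where the lower group was dim on an array, the fold is a bound, with that group's values raised to their array's 40th percentile.

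Named genes were drawn from the 12 largest called rises and falls with signal on all 4 arrays and the 8 largest with a dim lower group. They were also drawn from the 4 called genes of lowest adjusted p in each list, or fewer. A further rule, added after the values were seen, took the 12 largest called rises and falls among genes with a name and signal on all 4 arrays. Not every gene of these sets is named in the text. Members of the Aux/IAA, GH3, LBD, XTH, expansin and root hair lists could be named uncalled. The contrast, lists and rule were chosen with earlier results of these data known. The lists for organelle RNA processing, the plastid subsets, purine breakdown, branched-chain catabolism and OCT were added after their values were seen. Genes of other families that share a symbol stem were taken out of the defence, peroxidase, peptide, wall glycoprotein and P450 lists.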

Additional observations from a re-analysis of the deposited data

Results flagged for a closer look

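The difference between axr2 and msg2 was not the same with and without 24-eBL in 11 of the genes named in the text, by the interaction term of limma (treated minus untreated, 8 arrays, adjusted over 15025 probe sets). In 5 of them the call held without each single array of the 8. These were XTH20, with an interaction of -2.48 (adjusted p = 6.7e-04 in limma), OCT1, with 2.11 (7.1e-04), SIS, with 2.39 (1.5e-04), Prx37, with -1.67 (0.004), and AT2G23540, with -1.92 (0.0021). AT2G23540, a locus with no name in the annotation used, read 10.06 and 9.86 in untreated axr2 and 7.91 and 8.22 in untreated msg2, and 9.65 and 9.92 and 9.85 and 9.78 with 24-eBL.

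In the other 6 the interaction call was lost without at least 1 of the arrays. For XTH19 it was -1.19 (0.0087 in limma), and 0.071 without untreated msg2 array 1. For PDF2.5, at 10.45 and 10.87 in treated axr2 and 9.33 and 9.58 in treated msg2, it was -1.39 (0.023). The adjusted p rose to 0.18 without untreated msg2 array 1, 0.12 without treated msg2 array 2, 0.08 without untreated axr2 array 2 and 0.11 without treated axr2 array 1. For GH3.3, at 8.79 and 9.51 in treated axr2 and 8.94 and 9.39 in treated msg2, it was 1.64 (0.048), just under the threshold. It held only without untreated axr2 array 2 or treated axr2 array 1, and reached 0.26 without treated axr2 array 2. AT2G05540 gave 1.81 (0.025) and held only without untreated msg2 array 2, untreated axr2 array 2 or treated axr2 array 1, reaching 0.17 without untreated msg2 array 1. AT2G37870 gave 1.22 (0.016). Its adjusted p was 0.069 and 0.084 without untreated msg2 array 1 or 2, 0.091 without treated msg2 array 2 and 0.056 without treated axr2 array 2.

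The last of the 6, AT5G04120, read 5.03 and 0.62 in treated axr2, both dim and so without a measured level, and 11.30 and 11.56 in treated msg2. Its interaction of -5.82 (0.016 in limma) therefore has no measured size. It was -3.62 without treated axr2 array 2 and -8.02 without treated axr2 array 1, and its call was lost without any 1 of the 4 msg2 arrays, at 0.057 to 0.073. Its untreated difference of -2.79 (limma adjusted p = 0.018), from 9.99 and 10.15 in msg2 to 7.19 and 7.37 in axr2, was lost without each of the 4 untreated arrays, at up to 0.09.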

How the results depend on the processing

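The direction of each of the 83 called genes named in the text held under every alternative tried. Many of these alternatives could not have reversed it. The arrays of called genes did not overlap between the mutants, so leaving 1 out kept the sign, and changes of filter, variance model or threshold leave the log2 change as it is. Of the 83 genes, 54 were called under all alternatives. The count of 2522 probe sets called between untreated axr2 and msg2 was 861 with a 2-fold minimum, and ranged from 1044 to 2111 without 1 of the 4 arrays. Elsewhere it stayed within 1.5 times, from 1793 without the intensity trend to 3586 at an adjusted p under 0.10. Quantile normalization gave 1178 higher and 1431 lower. Among the 1924 treated calls, a 2-fold minimum left 758, and leaving out an array gave 1034 to 1232. The 82 interaction calls became 49 with no filter and 17 without the intensity trend, and ranged from 42 to 93 without 1 array. Against wild type, the 5329 calls of axr2 became 2236 with a 2-fold minimum and 3589 to 4194 without 1 array. The 619 calls of msg2 became 181 without the intensity trend, 1035 with only the compared arrays, 1043 at an adjusted p under 0.10, 260 with a 2-fold minimum, and 144 to 337 without 1 array. The causes were not tested beyond what each setting changes by construction.

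Among uncalled genes, the change of IAA18 was -0.012 after quantile normalization and -0.10 after centring, and ranged from -0.11 to 0.21 without 1 array. That of LBD29 ranged from -0.59 to 0.036 and that of XTH18 from -0.49 to 0.43 without 1 array. With replicate number as a block 2446 probe sets were called between the untreated mutants, 1818 between the treated ones and 77 for the interaction. Same-numbered axr2 and msg2 arrays deviated from their group means with r = -0.05, so no shared deviation by replicate number was seen. That value cannot settle whether samples of the same number were grown or processed together. With 2 arrays per group, 1 array often decides a call, and signals below the 40th percentile give only bounds.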

Other observations

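Of 7 tested histone genes, 2 rose and 1 fell in axr2. The histone H2B gene HTB1 (AT1G07790) read 10.06 and 10.20 in axr2, 9.10 and 9.39 in msg2 and 9.01 and 9.01 in wild type, and was 1.85-fold higher in axr2 than in msg2 (limma adjusted p = 0.0016). A second H2B gene, HTB2 (AT5G22880), was 1.76-fold higher, a call lost without axr2 array 2 (0.083 in limma) or msg2 array 1 (0.12). Of 7 tested tubulin genes, 1 rose, 1 fell and 5 were not called, with a median change of -0.01. The alpha-tubulin gene TUA1 (AT1G64740) read 9.09 and 9.15 in axr2 and 10.10 and 9.996 in msg2, 1.91-fold lower. The beta-tubulin gene TUB7 (AT2G29550) was 1.43-fold higher, a call lost without axr2 array 1 (0.18 in limma) or msg2 array 1 (0.33). The nitrate transporter gene NRT2.5 (AT1G12940) read 2.56 and 4.35 in msg2 and 7.08 and 6.29 in axr2, against 5.87 and 5.08 in wild type. Its call (limma adjusted p = 0.017) was lost without axr2 array 1 (0.11) or msg2 array 1 (0.17).

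Some of the largest differences belonged to loci with no name in the annotation used. AT5G66590 read 8.25 and 8.09 in axr2, 11.30 and 11.44 in msg2 and 12.17 and 11.95 in wild type, 9.15-fold lower in axr2 than in msg2 (limma adjusted p = 1.1e-09). AT2G05540 was 8.48-fold lower, at 9.01 and 9.05 in axr2 and 12.30 and 11.94 in msg2, and AT2G37870 was 7.56-fold lower, at 7.78 and 8.09 and 10.82 and 10.88. In the other direction, AT5G01870 read 11.60 and 11.88 in axr2, 9.16 and 9.63 in msg2 and 7.68 and 8.33 in wild type, and was 5.07-fold higher in axr2 than in msg2 (limma adjusted p = 4.8e-07). For all 4 loci the untreated arrays of msg2 lay between those of wild type and axr2.

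In larger families the calls went both ways. Of 30 tested UGT glycosyltransferase genes 3 rose and 3 fell. Of 24 genes for cellulose and hemicellulose 1 rose and 3 fell, and of 22 subtilase and carboxypeptidase genes 2 rose and 4 fell. Over all tested genes 8.29% were called higher and 7.6% lower, so these counts are not read as a result about the families. None of 10 cytochrome P450 genes and none of 5 WRKY genes was called in limma, and 1 of each had an unadjusted p under 0.05. Without axr2 array 1, 1 of the 10 P450 genes was called lower.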
